A study of Rattus norvegicus with 15 samples.

Results

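The data compared the subfornical organ of food-deprived rats with that of control rats. The members are the 10 arrays that carry these labels, 5 of each, out of 15 arrays in the series, and all 31042 probe sets that are not array controls. Both groups were male Sprague Dawley rats of 10 to 12 weeks. For each array the organs of 5 rats were dissected under a microscope from a brain slice and pooled, so that 25 rats stood behind a group. The food-deprived rats went without food for 48 h. The labels name no treatment for the controls, and the design text, taken at its word, applies the fast to every condition, so what the controls ate is not settled by the sources used here. The 5 arrays of water-deprived rats, for which no duration is given, enter no contrast here and are used only as values beside it.

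The subfornical organ lies on the wall of the third ventricle and has capillaries without a blood-brain barrier, so that its neurons meet circulating hormones directly. It is best known for sensing angiotensin II and sodium and driving thirst, and its neurons also respond to signals of energy balance such as ghrelin, leptin and amylin. A fast lowers insulin and leptin, raises ghrelin, glucocorticoids and fatty acids in blood, and in many tissues turns on genes that spare glucose and restrain lipid synthesis.

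Genes that respond to glucocorticoids and to fasting elsewhere were among those with more signal after food deprivation. Angptl4, Sult1a1, Mt2A, Plin4 and Ddit4 were 1.5 to 1.92 times higher. Others did not pass, among them Sgk1, Txnip and the brightest probe sets of Pdk4 and Fkbp5. Of the listed genes of the fasting fuel switch 5.0% were higher, against 8.02% of all genes. The receptors Adipor2, Ghsr, Galr2, Sstr2 and Sstr3 were 1.36 to 2.00 times higher, Adipor2 and Galr2 in only 1 of 2 tested probe sets each. Lower signal was seen for Foxo1 and Tsc2, 2 regulators of insulin and mTOR signalling, for the sterol regulators Scap and Srebf1, for the nuclear receptors Rorb and Nr1d1, and for Dnmt3a and Stat3, by 1.31 to 3.25 times. The group coincides with a ratio of control probe sets described below. A fit that allows for it through the water-deprived arrays reversed the sign for Tsc2 (0.16), Scap (0.14) and Nr1d1 (0.38). Among the higher genes named here it reversed the sign for Adipor2 (-0.34) and Plin4 (-0.16). The brightest probe sets of the other lower genes kept their sign, from -1.04 (Dnmt3a) to -0.04 (Srebf1). The second probe set of Srebf1 differed by 0.35 in the direct comparison. No probe set passed the test in that fit (smallest limma adjusted p = 0.3376). In it 437 of the 924 higher and 437 of the 763 lower genes had the opposite sign. A difference is throughout the mean of log2(signal + 16) in the food-deprived arrays minus that in the control arrays. It is given with its standard error (SE) for part of the genes, and a fold is this difference on a linear scale.

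The group coincided with the 5′/3′ ratio of the array's Actb and Gapdh control probe sets, which falls where RNA is broken or copied only in part. This ratio is the signal of probe sets at the 5′ end of the Actb and Gapdh transcripts over that at the 3′ end, averaged on the log2 scale over both genes. In food-deprived arrays 1 to 5 it was -0.71, -0.74, -0.76, -0.86 and -0.84, and in control arrays 1 to 5 it was -1.64, -1.55, -1.24, -1.36 and -1.67. Every food-deprived array lay above every control array, and the 5′ ends were thus brighter relative to the 3′ ends in the food-deprived arrays by 0.71 (log2), or 1.64 times. The exact two-sided permutation test over the 10 arrays gave p = 0.007937, the smallest value that 5 against 5 allows. Actb alone differed by 0.69 and Gapdh alone by 0.73. Within these 10 arrays, food deprivation and this ratio cannot be told apart, whichever gene is considered.

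**Figure D1:**
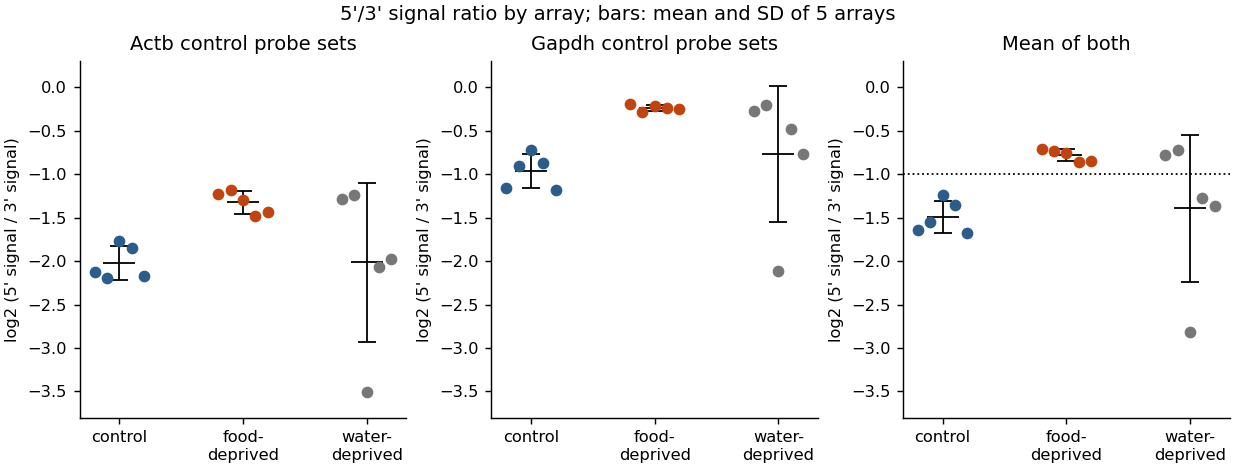
Log2 ratio of 5′ to 3′ signal of the Actb (left) and Gapdh (middle) control probe sets and their mean (right) in each array, 1 point per array, with the mean and SD of the 5 arrays of each group; the dotted line at -1 separates what the text calls the high set from the low set. In the right panel the food-deprived arrays lie between -0.86 and -0.71, the controls between -1.67 and -1.24, and water-deprived arrays 1 and 2 lie with the former and 3 to 5 with the latter.

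Only the water-deprived arrays fall on both sides of a ratio of -1. Arrays 1 and 2 belonged to the high set with the food-deprived arrays, and arrays 3 to 5, with ratios down to -2.81, to the low set with the controls. So 2 further values are given beside a gene. The first is its difference between the high and the low water-deprived arrays (arrays 1 and 2 minus arrays 3 to 5), in which no food-deprived or control array takes part. The second is the set-adjusted difference, from a fit of all 15 arrays with the array set as a term. It equals the food-deprived minus control difference less the difference between the water-deprived sets, and it rests on those 5 arrays. The water-deprived sets also differed in tissue markers, by a median of 1.19 over choroid plexus and ependymal markers and -0.91 over hippocampal and cortical ones. The set-adjusted difference carries any difference between these sets, whether of the ratio or of the tissue taken. Which of them it carries was not tested. Signal levels moved with the group too. The 25th percentile of the deposited signal was 15.7 to 17.4 in the food-deprived arrays and 13.0 to 14.2 in the controls (exact permutation p = 0.007937). The hybridisation controls, which are added after amplification, averaged 9.66 ± 0.36 (log2, SD, n = 5) and 9.30 ± 0.15 (exact permutation p = 0.04762).

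After removal of dim probe sets, 21729 probe sets for 11518 named genes were tested. At an adjusted p below 0.05, 2595 probe sets (11.9%) were higher and 1614 (7.43%) lower after food deprivation. Taking for each gene its brightest probe set, 924 genes (8.02%) were higher and 763 (6.62%) lower. The food-deprived arrays all lay above all controls in 2159 probe sets (9.94%) and 790 genes (6.86%), and all below them in 1211 probe sets (5.57%) and 597 genes (5.18%). Most differences were small, and 170 of the higher and 233 of the lower probe sets passed 2-fold. Of the calls, 61.65% were higher on the deposited scale, 51.43% after quantile normalization and 36.65% after each array was centred on its median. The centring moved the median difference of all probe sets by -0.10, so an increase below about this size depends on the scale.

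The balance of increases and decreases followed the signal level. Among the dimmest of 5 equal bins of tested probe sets 15.99% were higher and 4.72% lower, with a median difference of 0.14. In the brightest bin 7.89% were higher and 8.21% lower, with a median of 0.01. The difference between the water-deprived sets had a median of 0.21 in the dimmest and -0.0037 in the brightest bin.

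**Figure D2:**
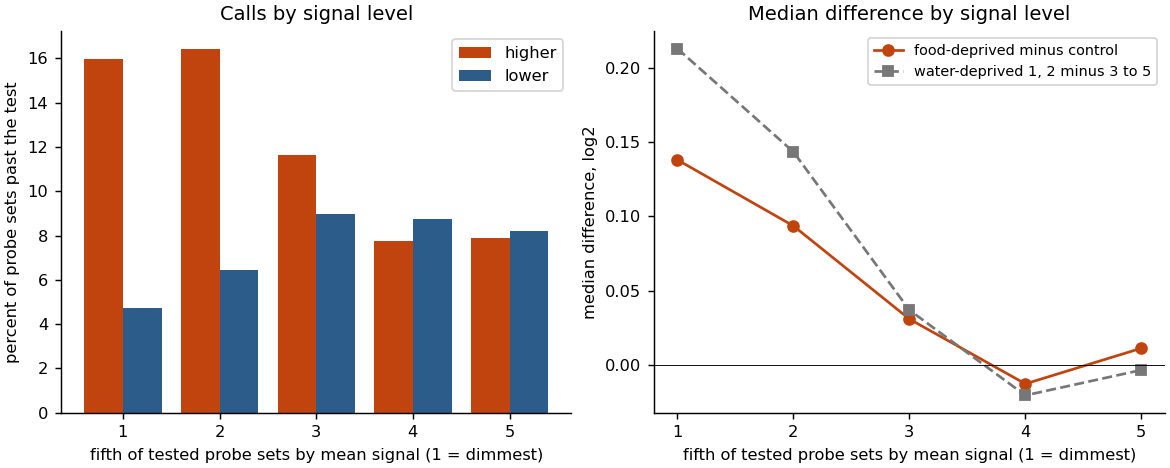
Left, percent of tested probe sets called higher or lower after food deprivation in each of 5 equal bins of mean signal, from the dimmest (1) to the brightest (5). Right, median log2 difference in each bin for food-deprived minus control arrays (solid) and for water-deprived arrays 1 and 2 minus 3 to 5 (dashed), which fall from 0.14 and 0.21 in the dimmest bin to near 0 in the upper 3.

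The direction of a called probe set was mostly that of the difference between the water-deprived sets. It was the same for 4000 of the 4209 called probe sets (95.03%) and for 69.72% of the tested probe sets that were not called. With the array set as a term no probe set passed the test (smallest limma adjusted p = 0.3376), while 1875 had an unadjusted p below 0.05, against 7081 in the comparison without it. The set-adjusted difference kept the sign and at least 0.5 of the size of the original one in 164 of the 924 higher genes (17.75%) and 143 of the 763 lower genes (18.74%), and had the opposite sign in 437 of each. With the ratio itself as a term, 48 probe sets (0.221%) were higher and 90 (0.414%) lower, and none in either direction once water-deprived array 3, which has the lowest ratio, was left out. A 15-array fit of the 3 groups without any such term called 1045 and 811.

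**Figure D3:**
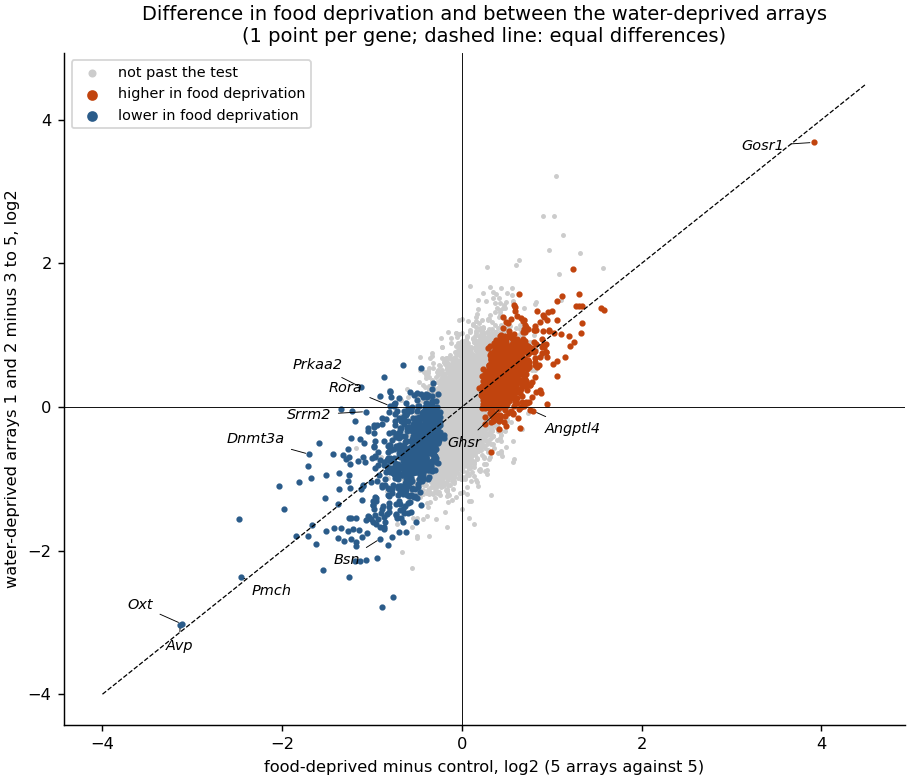
Difference after food deprivation (horizontal, log2, 5 arrays against 5) against the difference between water-deprived arrays 1 and 2 and arrays 3 to 5 (vertical, log2), 1 point per gene, coloured by the limma call; the dashed line marks equal differences. Gosr1, Avp, Oxt and Pmch lie near the dashed line, while Angptl4, Ghsr, Srrm2, Rora and Prkaa2 lie near a vertical value of 0.

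Of 37 genes listed as glucocorticoid responsive, 33 were tested, and 9 of them were higher and none lower after food deprivation, against 8.02% and 6.62% of all genes. The median difference over the 33 was 0.18 (0.03 over all genes), and the median set-adjusted difference 0.26 (0.01 over all genes). The 9 were Sult1a1, Angptl4, Mt2A, Plin4, Ddit4, Ccn2, Glul, Rhob and Nfkbia. After quantile normalization 9 members were higher and none lower, and after median centring 6 were higher and 1 lower, and between 5 (without food-deprived array 3) and 10 (without control array 2) were called when 1 array was left out.

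Angptl4 encodes a secreted inhibitor of lipoprotein lipase whose gene is switched on by fasting in fat, liver and muscle. Its signal was 103, 93.3, 92, 91.1 and 95.6 in food-deprived arrays 1 to 5 and 50.6, 74.6, 36.6, 48.8 and 35.9 in control arrays 1 to 5. The food-deprived arrays lay close together and all above the brightest control. The difference was 0.80 (SE 0.14, 1.74-fold, adjusted p = 0.00274), it remained called when any one array was left out, and the set-adjusted difference was 0.85 (SE 0.23), since the water-deprived sets differed by -0.06. Sult1a1, a phenol sulfotransferase, read 800, 593, 661, 676 and 734 after food deprivation and 425, 145, 358, 553 and 427 in controls, again without overlap. It differed by 0.94 (SE 0.27, adjusted p = 0.0306) and by 0.90 (SE 0.47) with the set as a term. The call of Sult1a1 was lost when any of food-deprived arrays 1, 3, 4 and 5 or control array 3 was left out, with adjusted p up to 0.068. Mt2A, a metallothionein that binds zinc and copper, had signals of 682 to 907 against 420 to 546, a difference of 0.73 (SE 0.10, adjusted p = 0.000751) and a set-adjusted difference of 0.41.

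The 300 bases around the start of these 3 genes are shown because the genes rose together and respond to hormones and metals elsewhere. They are RefSeq sequences of the GRCr8 build, from 250 bases before to 50 after the gene's start, read along the gene. Each of the 3 genes is on the minus strand, Angptl4 at chr7:15258632-15258931, Sult1a1 at chr1:190706063-190706362 and Mt2A at chr19:10838659-10838958. Capitals mark exact matches to the motifs named after the sequences.
Angptl4: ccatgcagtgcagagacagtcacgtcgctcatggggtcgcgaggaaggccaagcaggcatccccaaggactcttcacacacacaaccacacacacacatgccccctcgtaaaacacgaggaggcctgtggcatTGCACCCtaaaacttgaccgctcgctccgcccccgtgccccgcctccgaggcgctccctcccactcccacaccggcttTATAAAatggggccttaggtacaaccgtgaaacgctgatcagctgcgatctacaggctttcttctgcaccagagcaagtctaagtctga
Sult1a1: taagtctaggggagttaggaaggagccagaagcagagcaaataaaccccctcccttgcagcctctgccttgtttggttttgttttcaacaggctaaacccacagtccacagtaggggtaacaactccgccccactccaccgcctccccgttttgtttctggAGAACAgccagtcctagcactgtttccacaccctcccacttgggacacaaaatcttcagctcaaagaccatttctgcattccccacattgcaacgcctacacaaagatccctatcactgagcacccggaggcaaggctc
Mt2A: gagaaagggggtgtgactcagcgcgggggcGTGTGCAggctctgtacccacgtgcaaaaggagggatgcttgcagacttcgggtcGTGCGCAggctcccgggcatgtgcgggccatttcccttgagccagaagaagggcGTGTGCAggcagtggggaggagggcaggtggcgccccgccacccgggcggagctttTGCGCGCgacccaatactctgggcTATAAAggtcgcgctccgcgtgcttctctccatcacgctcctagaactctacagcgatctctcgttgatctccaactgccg

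The motifs were searched on both strands, except TATAAA, which was searched along the gene. The palindrome bound by the glucocorticoid receptor was found in none of the 9 called members and in 0.422% of all 27457 promoters. The hexamer TGTTCT, one arm of that palindrome, was found in 1 of the 9, Sult1a1, and in 20.06% of all promoters. The metal response element cores TGCGCNC and TGCACNC were found in 3 of the 9 each, and in 15.02% and 12.17% of all promoters. Mt2A held both cores, and Angptl4 the second. TATAAA was found in 3 of the 9, among them Angptl4 and Mt2A, and in 9.08% of all promoters. These are matches of letters in short windows and no measure of binding.

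Other members of the group gave mixed values. Plin4, a coat protein of lipid droplets, rose by 0.71 (SE 0.15, adjusted p = 0.00765) without overlap but had a set-adjusted difference of -0.16. Ddit4, an inhibitor of mTORC1 that glucocorticoids and energy stress induce, read 221 to 333 against 147 to 236 and rose by 0.58 (SE 0.14, adjusted p = 0.0145). Its set-adjusted difference was 0.17 (SE 0.27). Fkbp5, a co-chaperone that restrains the glucocorticoid receptor, has 2 tested probe sets. The brighter differed by 0.33 (adjusted p = 0.138) and the other was higher by 0.58 (adjusted p = 0.00543), with set-adjusted differences of 0.63 and 0.23. Pdk4, which shuts pyruvate dehydrogenase in fasted tissue, gave 0.42 (adjusted p = 0.196) and 0.55 (adjusted p = 0.00702) in its 2 probe sets, with set-adjusted values of 0.78 and -0.05. Txnip (0.18) and Sgk1 (0.23) did not pass. Glul, which makes glutamine and is also counted among the astrocyte markers below, was higher in all 3 of its tested probe sets, by 0.51, 0.82 and 1.19. Their set-adjusted differences were 0.19, 0.37 and -0.25. The call of the first Glul probe set was lost without food-deprived array 3 or 4 (adjusted p up to 0.0525).

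**Figure D4:**
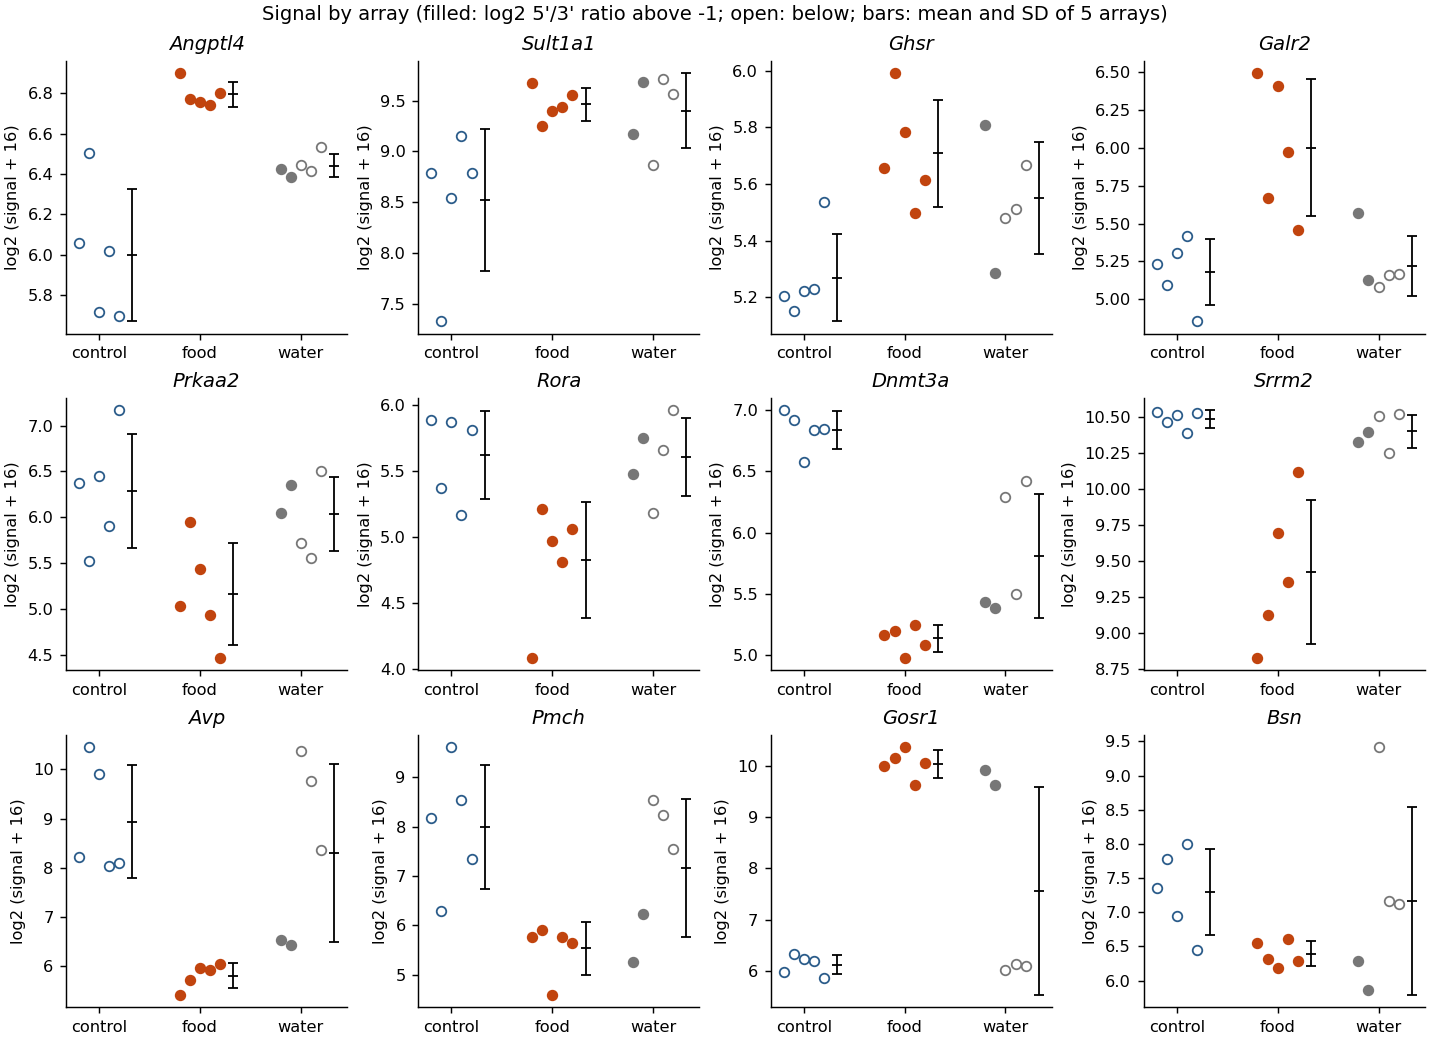
Log2(signal + 16) of 12 genes in every array, with the mean and SD of the 5 arrays of a group; filled points mark arrays of the high 5′/3′ set and open points those of the low set. Angptl4, Sult1a1, Rora and Srrm2 show no split between filled and open water-deprived arrays, whereas Gosr1, Avp and Pmch split there as they do between food-deprived and control arrays.

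Of 40 tested genes of fatty acid oxidation and the fasting fuel switch, Angptl4 and Decr1 (5.0%) were higher and Cpt2 (2.5%) was lower, no more than the 8.02% and 6.62% of all genes, and the median difference was 0.05. Decr1, a reductase needed to oxidise unsaturated fatty acids, rose by 0.41 (adjusted p = 0.043, set-adjusted -0.23). Cpt2, the carnitine transferase of the inner mitochondrial membrane, fell by 0.64 on the log2 scale (adjusted p = 0.036, set-adjusted -0.098). Both calls were lost when any of several single arrays was left out, 8 arrays for Decr1 and 7 for Cpt2, with adjusted p up to 0.0947 and 0.085.

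Of 34 tested genes of cholesterol and fatty acid synthesis, 1 (2.94%) was higher and 3 (8.82%) were lower, against 8.02% and 6.62% of all genes. The median difference was -0.11, and after median centring none was higher and 6 were lower. Scap carries the sterol regulatory proteins to the Golgi. It read 155, 118, 130, 165 and 116 after food deprivation and 199, 282, 243, 208 and 186 in controls, without overlap, and fell by 0.65 on the log2 scale (SE 0.13, adjusted p = 0.00552). Its second probe set differed by -0.24 (adjusted p = 0.202), and the set-adjusted differences were 0.14 and -0.31. Srebf1, the sterol regulatory factor that controls fatty acid synthesis, fell by 0.39 (adjusted p = 0.0196, set-adjusted -0.04), and its second probe set gave 0.35 (adjusted p = 0.129). Dhcr7, the last enzyme of cholesterol synthesis, fell by 0.56 (adjusted p = 0.0358, set-adjusted -0.0013). Scd2, the brain stearoyl-CoA desaturase, was higher in 3 of 4 probe sets, by 0.43, 1.55 and 1.98, with set-adjusted differences of -0.24, -0.34 and 0.28. The calls of Dhcr7 and of the brightest Scd2 probe set were each lost without any of 7 single arrays, with adjusted p up to 0.0807 and 0.0809.

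Of 53 tested insulin, FoxO and nutrient-sensing genes, 7 (13.2%) were higher and 4 (7.55%) lower, near the 8.02% and 6.62% of all genes. Those lower were Prkaa2, Foxo1, Tsc2 and Eif4ebp2. Foxo1, the transcription factor that insulin keeps out of the nucleus, read 31.7, 18.8, 29.3, 30.7 and 38.6 after food deprivation and 100, 49.1, 70.3, 65.8 and 69.9 in controls. All food-deprived arrays lay below all controls, and the difference was -0.92 (SE 0.16, adjusted p = 0.00232), with -0.17 after adjustment for the set. Tsc2, which holds mTORC1 in check, had 99 to 146 against 205 to 248, a fall of 0.76 on the log2 scale (adjusted p = 0.000722) that became 0.16 with the set as a term. Eif4ebp2, a repressor of cap-dependent translation, fell by 0.67 (adjusted p = 0.00072), and its relative Eif4ebp1 rose by 0.48 (adjusted p = 0.00637), with set-adjusted differences of -0.26 and 0.30.

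Prkaa2 encodes the catalytic alpha-2 subunit of the AMP-activated kinase. Its signals were 16.6, 45.6, 27.4, 14.4 and 6.09 after food deprivation and 67, 29.9, 71.2, 43.9 and 128 in controls, so that 4 of 5 food-deprived arrays lay below the dimmest control. The difference of -1.12 (SE 0.32, adjusted p = 0.028) was -1.40 (SE 0.54) with the set as a term, as the water-deprived sets differed by 0.27 the other way. The call was lost without food-deprived array 1, 4 or 5 or control array 1 or 3 (adjusted p up to 0.0666). Slc2a1, the glucose transporter of the blood-brain barrier and glia, read 387 to 526 against 292 to 340 and rose by 0.51 (SE 0.09, adjusted p = 0.00278), of which 0.32 remained after adjustment for the set.

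Receptors of feeding and metabolic signals were higher in 7 (25%) and lower in none of 28 tested, against 8.02% and 6.62% of all genes. The 7 were Adipor2, Galr2, Sstr2, Sstr3, Ghsr, Grpr and Gipr. After quantile normalization 4 of the list were higher and none lower, and after median centring 5 were higher and 2 lower. The called probe sets of Ghsr, Galr2 and Sstr2 lay in the dimmest bin of signal. In that bin 15.99% of probe sets were higher, against 11.9% of all tested probe sets. Another 18 of the 46 receptors with a probe set of their own were below the filter on dim signal, among them Mc4r, which restrains feeding. Ghsr, the receptor of the hunger hormone ghrelin, read 34.4, 47.6, 39, 29.2 and 33 after food deprivation and 20.8, 19.5, 21.4, 21.5 and 30.5 in controls. Only food-deprived array 4 and control array 5 overlapped, and the difference was 0.44 (SE 0.12, adjusted p = 0.022). The set-adjusted difference was 0.45 (SE 0.22), and the call was lost without food-deprived array 3 or control array 1 (adjusted p up to 0.0544).

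Galr2, a receptor of galanin, read 74, 34.8, 69.1, 46.9 and 28 against 21.6, 18.2, 23.6, 26.8 and 12.9, without overlap. It rose by 0.82 (SE 0.20, adjusted p = 0.0143) in one probe set, with a set-adjusted difference of 0.60, and differed by -0.13 in the other (adjusted p = 0.643). The somatostatin receptors Sstr2 and Sstr3 rose by 0.65 and 0.60 (adjusted p = 0.011 and 0.00363), with set-adjusted differences of 0.45 and 0.14. Adipor2, a receptor of adiponectin, had the largest increase of the list, 1.00 (SE 0.11, adjusted p = 0.000142), but -0.34 with the set as a term, and 0.09 in its second probe set. The leptin receptor Lepr ranged from 29.5 to 57 after food deprivation and from 14 to 179 in controls, and its difference of -0.22 (SE 0.40, adjusted p = 0.751) lay within that spread, as did 0.41 (adjusted p = 0.305) in its second tested probe set. The insulin receptor Insr differed by 0.18 (adjusted p = 0.407) in its brighter probe set and was higher by 0.60 (adjusted p = 0.00613) in the other.

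Among 21 tested precursors of feeding peptides, Prlh and Galp (9.52%) were higher and Avp, Oxt, Pmch, Vgf and Cartpt (23.8%) lower. Of all genes, 8.02% were higher and 6.62% lower. The lower members of the list were 3 without food-deprived array 2. Avp, the precursor of vasopressin, read 26.7 to 49.9 after food deprivation and 246 to 1392 in controls, and Pmch, which encodes melanin-concentrating hormone, 8.19 to 43.9 against 62.1 to 767. They fell by 3.14 and 2.46 on the log2 scale (adjusted p = 0.000722 and 0.00625) and their set-adjusted differences were -0.10 and -0.09. Both peptides are made in hypothalamic neurons that lie outside the organ, and Avp, Oxt and Pmch are themselves 3 of the 4 lower genes among 7 tested markers of such neurons, so that list is no separate measure. Of the other 4 markers, Hcrt, Scg2, Caprin2 and Th, only Caprin2 was lower (-0.27, adjusted p = 0.0386, set-adjusted 0.51) and none higher, and the summed signal of their brightest probe sets was 1335 to 1546 after food deprivation and 1186 to 1857 in controls. The part of such tissue in these values was not tested. In pooled tissue, fewer cells of a kind and less RNA per cell cannot be told apart.

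Galp, galanin-like peptide, rose by 0.54 (adjusted p = 0.0127, set-adjusted 0.34) and Prlh, prolactin-releasing peptide, by 0.56 (adjusted p = 0.0131, set-adjusted -0.13), both without overlap and from control signals of at most 25.7. Cartpt, the precursor of an appetite-restraining peptide, read 74.6 to 97.1 against 102 to 194 and fell by 0.50 on the log2 scale (adjusted p = 0.0275), with a set-adjusted difference of 0.16. Vgf, a precursor of peptides that regulate energy use, fell by 0.73 (adjusted p = 0.0237), with 0.76 after adjustment. The calls of Cartpt and Vgf were lost without food-deprived array 2, without food-deprived array 5, and without food-deprived array 3 (Cartpt) or 4 (Vgf), with adjusted p up to 0.0717 and 0.0593. Npy, which drives feeding, read 76 to 98.9 and 55.4 to 96 and differed by 0.14 (adjusted p = 0.514). Agrp had no probe set of its own, and Pomc was below the filter.

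Of 22 tested genes of thirst and salt appetite, 1 (4.5%) was higher and none lower, against 8.02% and 6.62% of all genes. Scnn1b, the beta subunit of the epithelial sodium channel, rose by 0.46 (adjusted p = 0.0154, set-adjusted 0.04). Agtr1a, the angiotensin receptor through which the organ senses angiotensin II, was measured in all arrays, at 144 to 186 after food deprivation and 54.4 to 279 in controls. Its difference of 0.06 (SE 0.31, adjusted p = 0.923) was smaller than the spread of the controls. The water-deprived sets differed by -1.22, so that the set-adjusted difference was 1.28 (SE 0.49), which did not pass over all probe sets. Its second tested probe set differed by 0.52 (adjusted p = 0.156), with 0.51 after adjustment.

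Immediate early genes, which mark recent activity of cells, were higher in 5 (20.8%) and lower in none of 24 tested on the deposited scale. Over all genes these shares were 8.02% and 6.62%. After median centring 1 member was higher. The 5 were Klf2, Nr4a3, Klf10, Klf6 and Jund, and 1 member was called when food-deprived array 5 was left out. Klf2, a factor of endothelial cells, rose by 0.68 (SE 0.08, adjusted p = 0.000329) but had a set-adjusted difference of -0.27 and a second probe set at -0.06. Klf6 rose by 0.45 (adjusted p = 0.0341), with 0.42 (adjusted p = 0.0188) and -0.08 in its other probe sets, and Klf10 by 0.53 (adjusted p = 0.0329). The set-adjusted differences of the brightest probe sets of Klf6 and Klf10 were 0.32 and -0.31. The calls of Nr4a3, Klf10 and Klf6 were lost without any of 8, 6 and 5 single arrays, with adjusted p up to 0.11, 0.0822 and 0.0799. Fos, the usual marker of neuronal activation in this organ, read 41.8 to 54.5 and 28 to 85.8 in its tested probe set. It showed no difference beyond that spread there (adjusted p = 0.996). A second Fos probe set, below the filter and so not tested, read 13.0 to 25.8 after food deprivation and 1.74 to 11.8 in controls. Its difference was 0.67, against 0.59 between the water-deprived sets. Egr1 differed by 0.28 (adjusted p = 0.109).

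Clock genes were lower in 3 (15%) and higher in none of 20 tested, against 6.62% and 8.02% of all genes. They were lower in 6 without control array 2 or after median centring. Rorb and Rora encode nuclear receptors that drive Bmal1 transcription. Rorb read 6.98, 16.7, 16.9, 20.4 and 12.5 after food deprivation and 34.3, 38.4, 25.6, 27.7 and 25.3 in controls, without overlap, and fell by 0.60 on the log2 scale (SE 0.14, adjusted p = 0.0113). Rora read 0.965, 21, 15.3, 12.1 and 17.5 against 43.2, 25.4, 42.6, 20 and 40.3, with 4 of 5 food-deprived arrays below the dimmest control, and fell by 0.80 (SE 0.22, adjusted p = 0.0246). Their set-adjusted differences were -0.58 (SE 0.26) and -0.81 (SE 0.38), while the water-deprived sets differed by -0.02 and 0.01. The signals of both are dim, and the call of Rora was lost without control array 1 or 3 (adjusted p up to 0.0634). A second Rora probe set, just below the filter and so not tested, went the other way, at 21.0 to 41.1 after food deprivation and 2.28 to 14.9 in controls, a difference of 1.06 against 0.98 between the water-deprived sets. The 2 Rora probe sets thus give no single direction for the gene. A second Rorb probe set below the filter differed by 0.13. Nr1d1, the heme receptor that opposes them, fell by 0.71 (adjusted p = 0.015), with 0.38 after adjustment for the set, and Per2 differed by -0.25 (adjusted p = 0.131).

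Several probe sets of 1 gene bear on how far a difference belongs to the gene rather than to 1 stretch of its transcript. Of 3035 genes with at least 2 tested probe sets, 1475 had a called one. All probe sets were higher in 52 genes and lower in 41, and 103 (6.98% of the 1475) had calls in both directions. The widest such gap, named after its values were seen, was that of Tpm3, a tropomyosin with 11 tested probe sets, of which one was higher by 3.99 and another lower by 0.42 on the log2 scale. These 2 probe sets differed by 3.98 and -0.51 between the water-deprived sets.

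Among genes whose tested probe sets all fell, Dnmt3a had a large fall with a small error. This enzyme, which methylates DNA anew, read 19.9, 20.8, 15.6, 22 and 18 after food deprivation and 112, 105, 79.7, 98.6 and 99.1 in controls. The groups were far apart relative to their spread, and the difference was -1.70 (SE 0.10, 3.25-fold, adjusted p = 2.52e-06). The food-deprived signals lay near the offset of 16, so their spread and the fold depend on it. Its second probe set fell by 1.03 on the log2 scale, and the set-adjusted differences of the pair were -1.04 (SE 0.26) and -0.23. Stat3, which carries the signal of the leptin receptor and of cytokine receptors, read 57.5 to 147 against 200 to 311. It fell by 1.33 (adjusted p = 0.000788) and 0.49 (adjusted p = 0.0413), with set-adjusted differences of -0.66 and 0.45. Srrm2, a scaffold protein of nuclear speckles, read 437, 542, 811, 636 and 1094 against 1471, 1401, 1446, 1324 and 1465. Its food-deprived arrays spread widely below the tight control values, and the difference of -1.07 (SE 0.19, adjusted p = 0.0031) was -1.001 (SE 0.31) with the set as a term, while its second probe set gave -0.55 and -0.03.

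Among the described genes with at least 2 tested probe sets that all fell, Pnma8b, of the paraneoplastic antigen family, fell most. Its brightest probe set fell by 2.48 on the log2 scale (5.6-fold, adjusted p = 6.31e-05) and its second by 1.18, with set-adjusted differences of -0.92 and -0.73. Ankrd11, a chromatin regulator of neural development, fell by 1.27 and 0.98 (set-adjusted -0.68 and -0.53), and Khsrp, a protein that promotes decay of AU-rich messages, by 1.10 and 0.73 (set-adjusted -0.40 and -0.32). For these 3 genes both probe sets kept their sign under the adjustment, but none passed the test in that fit. The SEs of the set-adjusted differences were 0.44 and 0.36 for Pnma8b, 0.40 and 0.32 for Ankrd11 and 0.40 and 0.24 for Khsrp. For Ube2n, an E2 enzyme of the ubiquitin system, Usp7, a deubiquitinase, and Atp1b2, the glial beta subunit of the sodium pump, the brightest probe sets differed by -1.23, -1.13 and -1.26 (all called lower) and had set-adjusted differences of 0.31, 0.02 and 0.29. Their other tested probe sets fell too, by 0.37 for Ube2n, by 1.05 and 0.55 for Usp7 and by 0.72 for Atp1b2.

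In other genes all tested probe sets rose. Mybl2, a factor of the cell cycle, rose by 0.81 and 0.46, and Usf1, a factor that binds E-boxes of metabolic genes, by 0.78 and 1.31. The set-adjusted differences were 0.13 and -0.25 for Mybl2 and -0.04 and 0.38 for Usf1. Ap2b1, a subunit of the clathrin adaptor of the plasma membrane, read 514, 524, 451, 572 and 478 against 252, 405, 293, 335 and 214. It rose by 0.76 (SE 0.15, adjusted p = 0.00446) and 0.95 (adjusted p = 0.000972) in 2 probe sets, and both kept their sign with the set as a term, at 0.45 and 0.34. Itpr2, the calcium release channel of glia, rose by 0.74 and 0.60, Slc18a2, the vesicular monoamine transporter, by 0.65 and 0.57, and Ddb1, an adaptor of a ubiquitin ligase, by 0.51 and 1.00. The set-adjusted differences of their brightest probe sets were -0.35, -0.04 and -0.46.

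Ribosomal protein genes were the list with the largest share of increases. Of 40 tested, 19 (47.5%) were higher and 1 (2.5%), Rps28, lower, against 8.02% and 6.62% of all genes. The difference was above 0 in 36 of the 40, with a median of 0.20. The count of higher members was 6 after quantile normalization and again 6 after median centring. The median set-adjusted difference was -0.02. Rps6, the subunit that the S6 kinases phosphorylate, read 3271 to 3997 against 2519 to 2809 and rose by 0.42 (SE 0.07, adjusted p = 0.00185), with -0.09 after adjustment. Rpl7 rose by 0.37 (adjusted p = 0.00231) and kept 0.21, with 2.15 and 0.61 in its second probe set, and Rpl21 rose by 0.40 (adjusted p = 0.0171) and had -0.16. Rps28 fell by 0.20 (adjusted p = 0.0412, set-adjusted 0.19), a call lost without any of 8 single arrays (adjusted p up to 0.101). These genes have many near-identical copies in the genome, and their probe sets may read more than 1 of them.

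Proteasome subunits were higher in 8 (22.2%) and lower in none of 36 tested, against 8.02% and 6.62% of all genes. After median centring 3 were higher and 1 lower. Without food-deprived array 3, 4 were called higher. Psmc6 and Psmd4, subunits of the regulatory cap, rose by 0.57 and 0.41 (adjusted p = 0.00255 and 0.00992), with set-adjusted differences of -0.10 and 0.12. The other 2 tested Psmc6 probe sets gave 0.11 and -0.04 and did not pass. Genes of oxidative phosphorylation were higher in 4 (5.8%) and lower in 1 (1.4%) of 69, no more than those shares of all genes. They were higher in 10 without control array 5, in 2 without food-deprived array 3 and in 2, with 5 lower, after median centring. Cox5a, a subunit of cytochrome oxidase, read 182, 173, 198, 140 and 144 against 62.7, 82, 67.7, 70.7 and 76.3 and rose by 1.06 (SE 0.11, adjusted p = 0.000109), of which 0.41 (SE 0.20) remained after adjustment. Ndufab1, the acyl carrier protein of complex I, fell by 0.26 (adjusted p = 0.0461), a call lost without any of 8 single arrays (adjusted p up to 0.101).

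Heat shock chaperones were higher in 4 and lower in 4 of 40 (2 and 8 after median centring), and chaperones of the endoplasmic reticulum higher in 1 and lower in 3 of 34. Against 8.02% and 6.62% of all genes, 10.0% and 10.0% of the former and 2.94% and 8.82% of the latter were called, shares near the background. Dnajb6, an Hsp40 that keeps aggregation-prone proteins soluble, read 251 to 331 against 92 to 120 and rose by 1.33 (SE 0.10, adjusted p = 1.67e-05), with 0.17 after adjustment. Hsf1, the master regulator of the heat shock response, and Stip1, which bridges Hsp70 and Hsp90, fell by 0.50 and 0.61 (adjusted p = 0.00951 and 0.0047). With the set as a term Hsf1 and Stip1 changed sign, to 0.33 and 0.16. In the endoplasmic reticulum Pdia3 rose by 0.84 (adjusted p = 0.000621), and Calr and Hyou1 fell by 1.24 and 1.06 (adjusted p = 0.00162 and 0.00691). The set-adjusted differences of Pdia3, Calr and Hyou1 were -0.50, -0.11 and 0.70, and the second probe sets of Pdia3 and Hyou1 differed by 0.18 and 0.11 without passing. Splicing factors were higher in 8 (13.8%) and lower in 6 (10.3%) of 58, against the same 8.02% and 6.62% of all genes. Snrpn rose by 1.32 (adjusted p = 0.000399, set-adjusted 0.29) and Hnrnpf by 0.61 (adjusted p = 0.00097, set-adjusted -0.29).

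**Figure D5:**
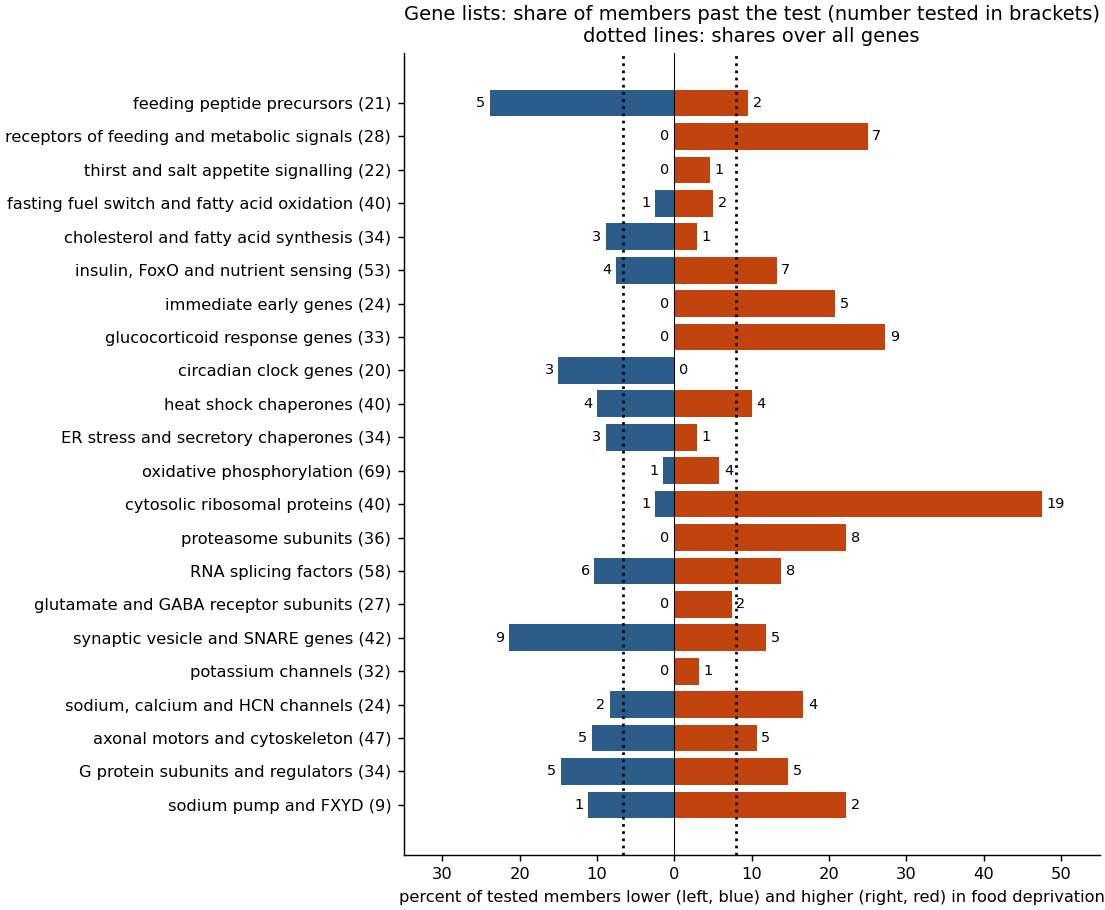
Percent of the tested members of each of the 22 pathway lists (cell type markers are not drawn) called lower (left, blue) or higher (right, red) after food deprivation, with the number of members beside each bar and the number tested in brackets; dotted lines mark 6.62% lower and 8.02% higher over all genes. Ribosomal proteins (19 of 40), glucocorticoid response genes (9 of 33) and receptors of feeding and metabolic signals (7 of 28) extend farthest to the right, and feeding peptides (5 of 21) and synaptic vesicle genes (9 of 42) farthest to the left.

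Synaptic vesicle and SNARE genes were lower in 9 (21.4%) and higher in 5 (11.9%) of 42 tested, against 6.62% and 8.02% of all genes. The median was -0.10. The count of lower members ran from 5 without food-deprived array 5 to 17 without control array 5. Gosr1, a SNARE of the Golgi, had the largest increase of the genes described here by their brightest probe set. It read 1003, 1112, 1303, 776 and 1044 after food deprivation and 47.4, 65, 59.3, 56.9 and 42.5 in controls, a difference of 3.91 (15.1-fold, adjusted p = 5.91e-08). The water-deprived sets differed by 3.68 at the same probe set, leaving 0.23 (SE 0.23), and its other 2 tested probe sets gave -0.16 and 0.37. Dnm1, the dynamin of synaptic vesicle endocytosis, and Syt5, a calcium sensor of vesicles, were lower, with differences of -1.18 and -1.23 (adjusted p = 0.00131 and 0.000298). Bsn, a scaffold of the presynaptic active zone, fell by 0.91 (adjusted p = 0.0254, lost without any of 5 single arrays, up to 0.0636). All 3 changed sign with the set as a term, to 0.71, 0.60 and 0.93. For Bsn, water-deprived array 3 read 669, against 128 and 124 in arrays 4 and 5 of the low set. With the ratio as a term and that array left out, the Bsn difference was -0.17. Sv2b, a vesicle glycoprotein, fell by 0.98 (adjusted p = 0.00358, set-adjusted -0.61) in its brightest probe set and rose by 0.51 (adjusted p = 0.0346) in the other. Amph, which recruits dynamin, rose by 0.78 (adjusted p = 0.00381) and had a set-adjusted difference of 0.43 (SE 0.28).

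Subunits of glutamate and GABA receptors were higher in 2 (7.41%) and lower in none of 27, no more than the 8.02% and 6.62% of all genes. Without control array 5 they were lower in 5. Grin2b, an NMDA receptor subunit, rose by 0.65 (adjusted p = 0.00303) in its brightest probe set and gave 0.14 in the other, and Gabrg1, a GABA receptor subunit, rose by 0.58 (adjusted p = 0.00515). For the called probe sets of Grin2b and Gabrg1 the set-adjusted differences were 0.13 and 0.05. Potassium channels were higher in 1 (3.1%) and lower in none of 32. The higher one was Kcna5 (0.57, adjusted p = 0.0255, set-adjusted 0.23, lost without any of 4 single arrays, up to 0.0582). Sodium, calcium and HCN channels were higher in 4 (16.7%) and lower in 2 (8.33%) of 24, and after median centring higher in 2 and lower in 6. Among the latter Cacnb3, an auxiliary calcium channel subunit, fell by 0.61 (adjusted p = 0.0058, set-adjusted 0.87).

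Genes of axonal motors and the cytoskeleton divided into 5 higher and 5 lower of 47 (10.6% each). G protein subunits and regulators divided into 5 and 5 of 34 (14.7% each). Over all genes, 8.02% were higher and 6.62% lower. Without control array 5 the lower cytoskeletal genes were 9, and without control array 1 the G protein genes were 2 higher and 3 lower. Kif1a, the motor that carries vesicle precursors, fell by 2.04 (adjusted p = 0.00756, set-adjusted -0.94, SE 0.73) in one probe set and differed by 0.14 in the other. Map1a, a microtubule-associated protein of mature neurons, fell by 0.55 (adjusted p = 0.0125, set-adjusted 0.59). Gnai2 read 276, 197, 249, 215 and 234 against 923, 772, 803, 903 and 630 and fell by 1.71 (3.27-fold, adjusted p = 9.36e-06). Its relative Gnai1 rose by 0.91 (adjusted p = 0.00691). Both encode inhibitory alpha subunits, and with the set as a term they differed by 0.08 and -0.34. The gamma subunit Gng2, higher by 0.82 (adjusted p = 0.00837), had a set-adjusted difference of 0.40 (SE 0.38). The second Gng2 probe set differed by 0.06 (adjusted p = 0.748).

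Markers of the cell types that the dissection could hold were called in few cases. Over all genes, 8.02% were higher and 6.62% lower. Neuronal markers were higher in 1 (5.26%), Syt1, and lower in 2 (10.5%), Rbfox3 and Uchl1, of 19. Their summed signal was 11060 to 16500 after food deprivation and 7114 to 19410 in controls. Rbfox3, which encodes the neuronal nuclear antigen NeuN, fell in both probe sets, by 1.35 and 0.71, with set-adjusted differences of 0.34 and 1.38. In these probe sets water-deprived array 3 read 739 and 521, against at most 103 in arrays 4 and 5. With the ratio as a term and that array left out, the differences were -0.82 and 0.22. Syt1 rose by 0.34 and Uchl1 fell by 0.49 (adjusted p = 0.0272 and 0.0445), calls lost without any of 5 and 9 single arrays (adjusted p up to 0.0705 and 0.105). The set-adjusted differences of Syt1 and Uchl1 were -0.39 and 0.62. Astrocyte and tanycyte markers were higher in 1, Glul, and lower in 1, Vim, of 18 (5.56% each). Vim fell by 0.47 (adjusted p = 0.0225, set-adjusted 0.48, lost without food-deprived array 2 or 4 or control array 1, up to 0.0545).

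Oligodendrocyte markers had a median difference of 0.52 over 17 tested, 15 of them above 0, but only Mbp (5.88%), a major protein of myelin, was called. Without control array 2, 7 were called higher. Mbp read 4026, 5402, 4658, 3932 and 4186 against 3143, 3406, 3359, 2149 and 2159, a difference of 0.66 (adjusted p = 0.01) and -0.08 with the set as a term. Its other 2 tested probe sets gave 2.38 (adjusted p = 0.00848, set-adjusted -0.31) and -0.16 (adjusted p = 0.767, set-adjusted -0.57). The summed oligodendrocyte signal was 17090 to 25280 after food deprivation and 7526 to 25830 in controls. Choroid plexus and ependymal markers had a median of 0.34 over 17 tested, with Ttr, the thyroxine carrier made by the choroid plexus, higher by 0.49 (adjusted p = 0.0199, set-adjusted -0.42). Their summed signal was 8808 to 19100 against 4469 to 21810. The ranges of both cell types overlapped between the groups, and the part of neighbouring white matter or choroid plexus in other results was not tested. Endothelial and mural markers were higher in 2 (10%) and lower in none of 20, against 8.02% and 6.62% of all genes. Acta2, the smooth muscle actin, rose by 0.56 (adjusted p = 0.00278, set-adjusted 0.03) and Cldn5, the tight junction protein of brain endothelium, by 0.64 (adjusted p = 0.0276, set-adjusted 0.93). The call of Cldn5 was lost without any of 5 single arrays (adjusted p up to 0.0679).

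The genes with the smallest unadjusted p in the fit with the array set differed from those above, and none passed its test. Sema4b, a transmembrane semaphorin, and H1f10, a linker histone, had set-adjusted differences of 1.88 (SE 0.30) and 1.90 (SE 0.42) but were lower by 0.77 and 0.89 in the direct comparison (adjusted p = 0.00432 and 0.0285). The call of H1f10 was lost without any of 5 single arrays (adjusted p up to 0.0675). The water-deprived sets differed by -2.64 for Sema4b and -2.79 for H1f10. Klhl24, an adaptor of a ubiquitin ligase, had set-adjusted differences of -1.08, -0.67 and -0.69 in its 3 tested probe sets, against -0.34 (adjusted p = 0.0604), -0.01 and 0.13 in the direct comparison.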

How the data were processed

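RNA of the subfornical organ was measured on Affymetrix rat arrays after linear amplification with biotin labelling. Per the submitters' processing notes the authors used GCOS 1.2, and the deposited table holds 1 linear intensity (Affymetrix signal) for each probe set and array. Every array has the same trimmed mean (100.0, 2% trimmed at each end) in the deposited table, so each array was scaled and the distributions were not equalised. Array number limits the precision, and detection calls were not used.

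From these values log2(signal + 16) was taken without further scaling. Probe sets whose mean over the 10 arrays was at or below the 30th percentile (log2 5.13) were left out. Groups were taken from the sample titles and compared in R 4.3.3 with limma 3.58.1 on the 10 arrays, with the prior variance allowed to follow mean signal, two-sided, and Benjamini-Hochberg adjustment over the 21729 probe sets tested (threshold 0.05). The fits with the array set or the ratio used all 15 arrays. Of 31042 probe sets, 20826 have 1 gene symbol in the supplied annotation, 436 several and 9780 none. A gene is represented by its brightest probe set of its own. On simulated data the fit recovered 38.8%, 82.1% and 98.5% of probe sets changed by 0.5, 1 and 2 (log2) among the 21729. The simulated arrays held no shift between array sets, so these shares do not cover the coincidence of group and ratio.

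The text names genes with at least 2 probe sets that all passed one way without overlap, up to 4 called members of each of 34 lists in each direction, genes leading the fit with the array set, and a fixed set of feeding and fasting genes. Part of these are described, and the other called members of the glucocorticoid, receptor and immediate early lists (Ccn2, Rhob, Nfkbia, Grpr, Gipr and Jund), Mc4r, Tpm3 and 4 hypothalamic markers were named after their values were seen. The members and lists were chosen with earlier results of these data known.

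Same-numbered arrays of the 2 groups did not deviate together (correlations from -0.24 to 0.19), so the number was not used as a block. Alternatives were other scaling, offset, filter, variance model, arrays and threshold. Bins by transcript length were not used, for want of lengths in the files' build. Markers of the striatum, thalamus, hippocampus, blood cells, microglia and fibroblasts were counted in the same way, with at most 2 of a list called in either direction.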

Additional observations from a re-analysis of the deposited data

Results flagged for a closer look

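Arrays that lay far from the other 4 of their group were looked for in the 106 genes described, in both groups, which makes 212 groups of 5. The gap had to pass Dixon's 95% critical value for 5 samples, which by its construction chance passes in about 1 group of 20, and 6 of the 212 groups passed it. Among the food-deprived arrays, Decr1 was lowest in array 4, at a signal of 385.5 against 478.1 to 519.8 in the others, and Pmch was lowest in array 3, at 8.191 against 34.03 to 43.88. Among the controls, Ghsr was highest in array 5, at 30.46 against 19.53 to 21.47, and this array is the only control that overlaps the food-deprived ones. Gabrg1 was highest in control array 1 (57.93 against 39.15 to 40.87), Itpr2 in control array 3 (38.51 against 22.4 to 26.27) and Rpl21 in control array 2 (1858 against 1328 to 1380). The 6 genes stood apart in 6 different arrays.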

How the results depend on the processing

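The comparison called 2595 probe sets higher and 1614 lower, and 924 genes higher and 763 lower. Median centring gave 1518 and 2624 probe sets, and 445 and 1366 genes. A filter at the 50th percentile gave 1532 probe sets and 615 genes higher, a minimum of 1.5-fold 920 and 778 probe sets and 211 and 306 genes, and array weights 1177 genes lower. All 15 arrays fitted as 3 groups gave 1045 and 811 probe sets and 356 and 294 genes. With the ratio as a term these were 48 and 90, and 12 and 21, and 0 in each direction without water-deprived array 3, an alternative chosen after seeing the data. With the array set as a term limma called 0 in each direction, with 1875 probe sets at an unadjusted p below 0.05. Leaving out 1 array gave 1889 to 2748 probe sets higher and 1128 to 1842 lower, and 616 to 1058 genes higher and 526 to 961 lower. The replicate number as a block gave 1774 and 1144 probe sets and 567 and 530 genes. The numbers mark no pairing, since no array correlated best with its own number. The cause of these shifts was not tested, except that fewer probe sets are tested under the stricter filter and fewer can pass a minimum fold. Bins by transcript length were not run.

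Of the 106 genes described, 106 kept direction and call with an offset of 64, 95 after quantile normalization and 91 after median centring. With the array set as a term 46 changed sign: Adipor2 -0.34, Atp1b2 0.29, Bsn 0.93, Cacnb3 0.87, Cartpt 0.16, Ddb1 -0.46, Decr1 -0.23, Dnm1 0.71, Fos 0.56, Gnai1 -0.34, Gnai2 0.080, H1f10 1.90, Hnrnpf -0.29, Hsf1 0.33, Hyou1 0.70, Insr -0.44, Itpr2 -0.35, Klf10 -0.31, Klf2 -0.27, Map1a 0.59, Mbp -0.076, Nr1d1 0.38, Pdia3 -0.50, Plin4 -0.16, Prlh -0.13, Psmc6 -0.105, Rbfox3 0.34, Rpl21 -0.16, Rps28 0.19, Rps6 -0.089, Scap 0.14, Scd2 -0.24, Sema4b 1.88, Sgk1 -0.19, Slc18a2 -0.043, Stip1 0.16, Syt1 -0.39, Syt5 0.60, Tsc2 0.16, Ttr -0.42, Ube2n 0.31, Uchl1 0.62, Usf1 -0.041, Usp7 0.017, Vgf 0.76 and Vim 0.48. With the ratio as a term 8 did: Bsn 0.15, Cacnb3 0.088, Fos 0.25, H1f10 0.049, Insr -0.14, Rps28 0.032, Sema4b 0.14 and Sgk1 -0.14. Genes without a call changed sign elsewhere: Agtr1a to -0.21 with array weights, -0.041 after median centring and -0.26 without control array 2, Lepr to 0.14 without control array 5 (range -0.53 to 0.14 over arrays left out), and Fos to 0.052 with array weights, 0.016 with an offset of 1 and 0.0093 to 0.16 without food-deprived array 1 or 2 or control array 2 or 3. Dim signal limits Rora, Rorb, Prkaa2, Ghsr, Galr2, Dnmt3a, Plin4, Ankrd11 and Kif1a, among others, whose lowest arrays lie near or below the offset of 16.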
